A study of Mus musculus with 24 samples.

Results

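Insulin receptor knockout (IRKO) astrocytes treated with IGF-1 were compared with floxed control (IRflox) astrocytes given the same treatment. The members were chosen by sample title and were 4 IRKO and 4 IRflox libraries, 8 of the 24 in the series. The cells were primary cortical astrocytes grown from newborn mouse pups whose insulin receptor gene, Insr, carried floxed alleles. IRKO cells had been infected with an adenovirus carrying a Cre:GFP fusion, and IRflox cells, floxed at the same gene, with an adenovirus carrying GFP and no Cre, 5 days before the experiment. Cells of both groups had been starved of serum overnight in medium with 0.1% BSA and then received 100 nM IGF-1 for 6 h. Genotype and viral Cre go together in this design and cannot be told apart. Whether replicate libraries stem from different cultures or litters is not stated. A p-value here thus sets a difference only against the spread among these libraries, estimated over all 24, and that spread may be technical. The other 16 libraries had the same genotypes under vehicle or 100 nM insulin and served to estimate the spread and to see which genotype differences were found again.

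The insulin receptor and the IGF-1 receptor are related receptor tyrosine kinases that bind each other's ligand with lower affinity and can pair into hybrid receptors. Both signal through IRS proteins to PI3K and AKT, which keeps FOXO transcription factors out of the nucleus, and through RAS to the MAP kinases. Cells without the insulin receptor keep the IGF-1 receptor, the main receptor for IGF-1. In astrocytes these pathways are known to act on glucose uptake, lipid synthesis and autophagy, the degradation of cell contents in lysosomes. The comparison asks what loss of the insulin receptor does to transcription when the other receptor is being stimulated.

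RNA selected by poly-A was sequenced as pairs of 150-base reads without strand information. Gene counts summed to 16128011 to 17552888 in the IRKO libraries and 16399905 to 17954890 in the IRflox libraries, and 15599 of 32719 genes passed the expression filter and were tested. Of all reads, 16.6 to 21.4% fell outside genes in IRKO libraries and 14.5 to 19.9% in IRflox libraries. The first principal component of the 8 libraries held 23.4% of their variance and separated the genotypes. Astrocyte markers were present under the astrocyte label, and the 19 listed summed to 5670 to 5790 CPM (gene counts scaled to a common library total with TMM) in IRKO cultures and 5440 to 5620 CPM in IRflox cultures. The cultures also held RNA of microglia, whose 21 markers summed to 5210 to 5350 CPM in IRKO and 4660 to 4970 CPM in IRflox. Marker sums of other cell types were lower. They were 462 to 493 CPM in IRKO and 420 to 449 CPM in IRflox for the oligodendrocyte lineage. For fibroblasts and mural cells they were 456 to 482 CPM in IRKO and 442 to 466 CPM in IRflox. Neuron markers summed to 149 to 159 CPM in IRKO and 172 to 183 CPM in IRflox. In such bulk RNA, fewer cells of a type and less RNA per cell cannot be told apart.

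Between genotypes under IGF-1, 1055 of 15599 genes (6.76%) differed at a Benjamini-Hochberg adjusted p under 0.05 in edgeR's quasi-likelihood test, called genes below. Of these, 564 were higher in IRKO (3.62% of genes tested) and 491 were lower (3.15%). The differences were mostly small. The median absolute log2 difference of the called genes was 0.25, and 39 higher and 70 lower genes passed 1.5-fold. The 4 IRKO and the 4 IRflox libraries did not overlap in 2054 genes (13.2% of those tested), 1027 in each direction (6.58%), and 925 of the called genes were among them. Of the called genes, 53 share over 20% of their exon bases with another measured gene, so that without strand information their reads are uncertain, and this is stated for those named below.

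**Figure D1:**
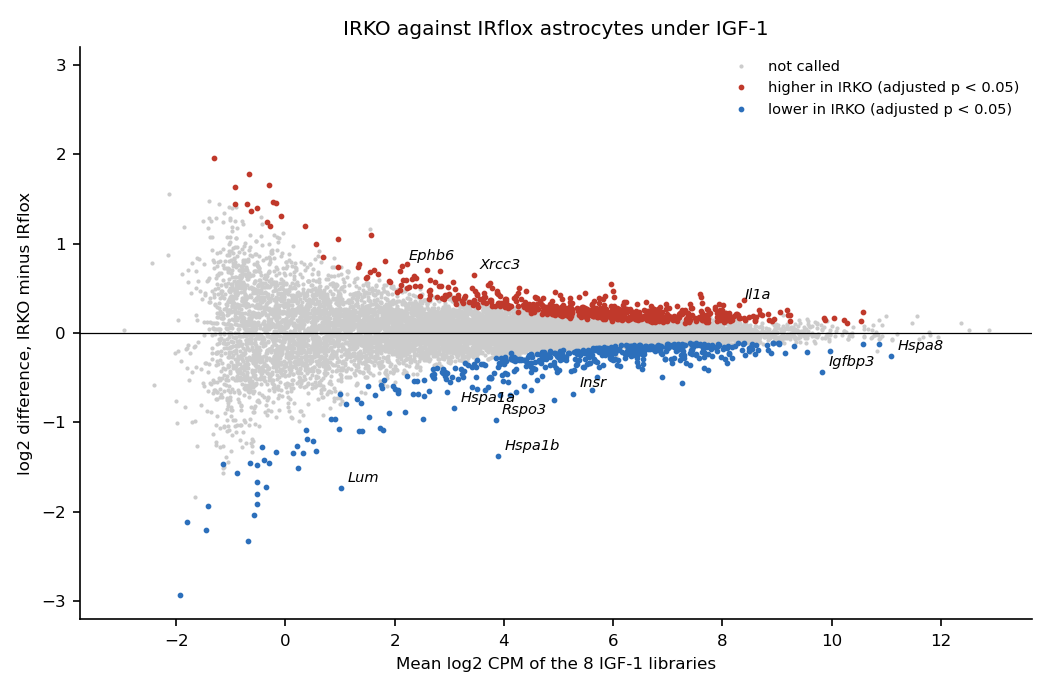
Log2 difference of IRKO minus IRflox under IGF-1 (y axis) against the mean log2 CPM of the 8 libraries (x axis), 1 point per gene tested, with called genes in red (higher in IRKO, 564) and blue (lower in IRKO, 491). The called genes lie close to 0 at high expression, and Hspa1b, Rspo3, Insr and Igfbp3 stand apart among the lower ones.

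Insr was lower in IRKO cultures, as its genotype label states, but its reads were not absent. Insr (chromosome 8, ENSMUSG00000005534) had 29.0, 29.6, 30.3 and 32.2 CPM in the IRKO libraries, against 47.1, 49.2, 50.9 and 46.7 CPM in the IRflox libraries. The groups did not overlap, and the IRKO mean was 62.5% of the IRflox mean (log2 difference -0.68, SE 0.058, adjusted p 1.17e-10). These counts cover all exons of the gene and were not split by the floxed part, and the source of the remaining reads was not tested. Igf1r, the receptor of the ligand given, had 96.3 to 109 CPM in IRKO and 96.3 to 102 CPM in IRflox, and its difference of 0.07 on the log2 scale was not called (SE 0.041, adjusted p 0.381). Igf2r, which clears IGF-2 from the cell surface, was not called either (0.04, SE 0.045, adjusted p 0.655).

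Downstream of the receptors, 2 of 37 genes of the insulin and IGF pathway were higher in IRKO and 2 were lower. That was 5.41% each, against 3.62% and 3.15% of all genes tested. The median of the list was 0.00 on the log2 scale, beside a median of 0.00 over all genes tested. The 2 genes that rose were Socs3 and Ptpn1. Socs3, which binds activated receptors and JAK kinases, had 174, 161, 167 and 170 CPM in IRKO and 137, 151, 132 and 143 CPM in IRflox, with no overlap (log2 difference 0.25, SE 0.045, adjusted p 0.000216). Ptpn1, the phosphatase PTP1B that dephosphorylates the insulin receptor, rose by 0.13 (SE 0.034, adjusted p 0.0109), with 276 to 284 CPM in IRKO and 250 to 257 CPM in IRflox, a call lost with no expression filter (adjusted p 0.0517). Besides Insr, the pseudokinase gene Trib3 fell by 0.69 on the log2 scale (SE 0.212, adjusted p 0.0389), averaging 2.42 ± 0.713 CPM in IRKO and 3.91 ± 0.594 CPM in IRflox (SD, n = 4 each). The Trib3 call was lost in 5 of the 8 fits that left out 1 library, with adjusted p up to 0.149 without IRKO replicate 4. The adaptors were not called: Irs2 had a log2 difference of -0.10 (adjusted p 0.0981) with no overlap between the groups, and Irs1 one of -0.12 (adjusted p 0.0532). Irs2 was called lower with the 8 IGF-1 libraries alone (adjusted p 0.0462). Irs1, with 30.9% of its exon bases shared with another gene, was called lower without IRflox replicate 3 (adjusted p 0.0143) or without IRKO replicate 3 (adjusted p 0.0421), with DESeq2 (adjusted p 0.0246) and with DESeq2 size factors in edgeR (adjusted p 0.0445).

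Among 15 IGF ligands and binding proteins, 1 fell and 1 rose (6.67% each, against 3.15% and 3.62% of all genes). Igfbp3, the main carrier of IGFs in blood and an abundant transcript in these cultures, had 780, 816, 769 and 755 CPM in IRKO, against 1060, 1070, 1020 and 1070 CPM in IRflox. The groups were well apart (log2 difference -0.44, SE 0.054, adjusted p 5.4e-07). Igfbp5, another secreted IGF-binding protein, averaged 494 ± 14.1 CPM in IRKO and 426 ± 19.0 CPM in IRflox (log2 difference 0.21, SE 0.049, adjusted p 0.00375). Igf1 itself averaged 27.7 ± 2.1 CPM in IRKO and 24 ± 1.5 CPM in IRflox and was not called (0.21, adjusted p 0.0876), while under vehicle its difference of 0.51 was (adjusted p 2.93e-06). The test of IGF-1 minus vehicle for Igf1 was not passed (-0.30, SE 0.102, adjusted p 0.763).

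**Figure D2:**
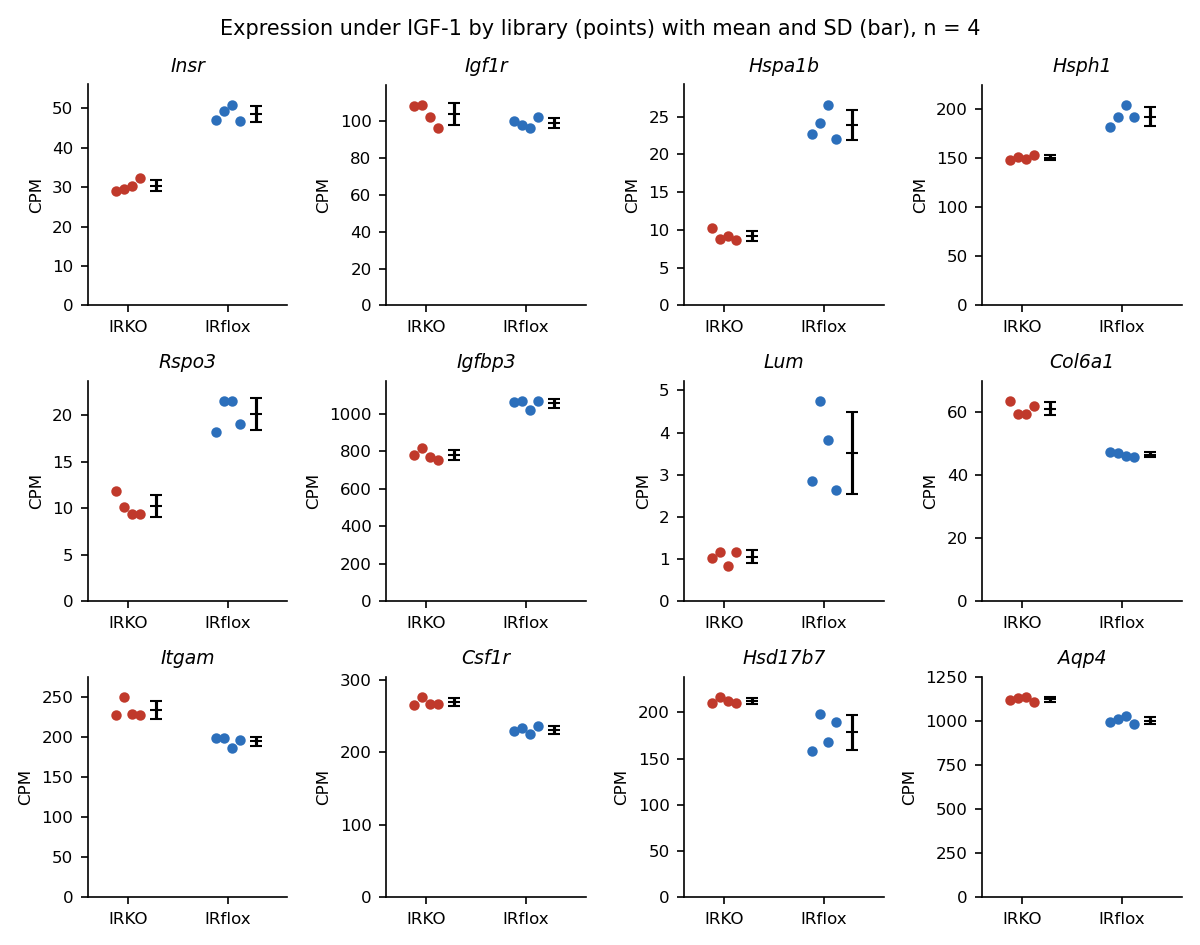
CPM (y axes, from 0) of 12 genes in the 4 IRKO and the 4 IRflox libraries under IGF-1, with the mean and SD of each group beside its points. Insr, Hspa1b, Hsph1, Rspo3, Igfbp3 and Lum lie lower in every IRKO library than in any IRflox library, Igf1r overlaps, and Col6a1, Itgam, Csf1r, Hsd17b7 and Aqp4 lie higher in every IRKO library.

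The 12 largest falls among genes of at least moderate expression (mean log2 CPM of at least 2, groups not overlapping) were led by the inducible heat shock protein Hspa1b, with a log2 difference of -1.38. Rspo3, a secreted enhancer of WNT signalling, had 11.9, 10.2, 9.44 and 9.43 CPM in IRKO and 18.2, 21.6, 21.6 and 19.1 CPM in IRflox. The level in IRKO was thus 0.509 of that in IRflox (log2 difference -0.97, SE 0.121, adjusted p 6.84e-07). Sele, the adhesion molecule E-selectin, fell by 0.97 on the log2 scale (4.01 ± 0.598 CPM in IRKO, 7.83 ± 0.559 CPM in IRflox, adjusted p 2.77e-05). Diras2, a small RAS-like GTPase, fell by 0.75 (23.4 ± 2.0 CPM in IRKO, 39.2 ± 2.08 CPM in IRflox, adjusted p 2.14e-09). Lpar4, a lysophosphatidic acid receptor, fell by 0.70 and Dio2, the deiodinase with which astrocytes activate thyroid hormone, also by 0.70 (adjusted p 1.74e-05 and 0.0017). The others were Aff2, Hspa1a, Msl3l2, Insr, Hspb1 and Cyp24a1, the enzyme that degrades active vitamin D. Of these 12 genes, 11 were called lower under vehicle too, all but Cyp24a1, and 10 under insulin, all but Dio2 and Cyp24a1.

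The 12 largest rises were named by the same rule, with Snhg11 the farthest at 0.77 on the log2 scale. Xrcc3, which acts in repair of DNA by homologous recombination, had 13.8, 13.4, 13.1 and 14.1 CPM in IRKO and 10.5, 8.0, 9.49 and 6.72 CPM in IRflox. All IRKO values lay above the IRflox values (log2 difference 0.65, SE 0.112, adjusted p 0.000131). Tbkbp1, an adaptor of the kinase TBK1, rose by 0.56 (16.1 ± 0.815 CPM in IRKO, 10.9 ± 1.12 CPM in IRflox, adjusted p 2.44e-05). Kcnc1, a voltage-gated potassium channel, rose by 0.71 (adjusted p 0.00245), Ephb6, an ephrin receptor without kinase activity, by 0.75 (adjusted p 0.000732), and the long RNA Snhg11 by 0.77 (adjusted p 0.00494). Pnpla3, an enzyme of lipid droplets, rose by 0.57 (adjusted p 0.00278), and Gm13889, with 20.8% of its exon bases shared, by 0.54. The remaining 5 were Itgb4, Clec2g, Cdc25b, Arhgap8 and Lamb3. Itgb4 and Lamb3, subunits of the integrin and laminin of hemidesmosomes, and the phosphatase gene Cdc25b lost their calls in 5, 3 and 2 of the 8 fits without 1 library, with adjusted p up to 0.102 (without IRKO replicate 3), 0.122 (without IRKO replicate 1) and 0.0783 (without IRflox replicate 1). Clec2g lost its call without IRflox replicate 4 (adjusted p 0.0531). Of the 12 rises, 4 were called under vehicle (Kcnc1, Itgb4, Tbkbp1 and Gm13889) and 6 under insulin (these 4 with Xrcc3 and Pnpla3).

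Some chaperone genes, with the inducible Hspa1b and Hspa1a farthest, were lower in IRKO. Heat shock proteins help other proteins fold, and after stress the factor HSF1 drives their genes through promoter elements made of inverted repeats of a GAA unit. Hspa1b, Hspa1a and Hspb1 were named among the largest falls. The wider group was chosen after these values were seen, by taking every heat shock protein and DnaJ gene by symbol. Of the 65 tested, 15 were lower and none higher, against 3.15% of all genes lower, and the median log2 difference of the 65 was -0.04. The 15 comprised 9 of 19 genes of the HSP70, HSP110, HSP90, HSP60 and HSP10 families, 4 of 40 DnaJ co-chaperones and 2 of 6 small heat shock proteins. The chaperones of the endoplasmic reticulum Hspa5 and Hsp90b1 were not called, with log2 differences of 0.03 and 0.04 (adjusted p 0.769 and 0.667). Promoter windows of 3 of the 15 lower genes, the 150 bases before the annotated start in RefSeq on GRCm38.p6, are shown. All 3 hold the letters marked, which not every lower gene does, as counted below. Capitals mark the letters GAANNTTC or TTCNNGAA, each of which reads the same on both strands.
Hspa1b, chr17:34959239-34959388, minus strand: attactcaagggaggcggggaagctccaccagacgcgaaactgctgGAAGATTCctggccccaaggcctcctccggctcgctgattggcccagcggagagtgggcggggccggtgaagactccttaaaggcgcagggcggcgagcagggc
Hspb1, chr5:135887769-135887918, plus strand: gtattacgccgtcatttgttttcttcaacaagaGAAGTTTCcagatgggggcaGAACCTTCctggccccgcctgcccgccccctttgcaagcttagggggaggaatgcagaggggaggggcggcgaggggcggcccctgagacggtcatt
Hsph1, chr5:149636337-149636486, minus strand: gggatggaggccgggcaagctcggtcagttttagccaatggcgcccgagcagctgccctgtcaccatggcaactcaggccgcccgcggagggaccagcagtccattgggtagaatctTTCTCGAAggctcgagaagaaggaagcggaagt

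Of the 15 lower chaperone genes, 11 matched a promoter entry by symbol. A gene was counted if any of its promoter windows held at least 1 of these letter patterns. That was so for 7 of these 11 genes (63.6%): Hspa1b, Hspa1a, Hspb1, Hsph1, Dnaja1, Dnajb4 and Hspd1. Among the heat shock and DnaJ genes that were not called, 4 of 42 with an entry (9.52%) were counted, and among all genes tested 826 of 11604 (7.12%). A match describes the letters and not binding. For Hsph1 the GENCODE annotation starts the gene farther upstream, at base 149636376, so the marked letters lie inside that gene span. The windows of Hspa1b and Hspa1a are the same in 149 of 150 bases.

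Hspa1b had 10.2, 8.86, 9.14 and 8.63 CPM in IRKO, against 22.7, 24.2, 26.6 and 22.1 CPM in IRflox. Its level in IRKO was 0.385 of that in IRflox, the groups were far apart, and its adjusted p was the lowest of all genes (SE 0.104, adjusted p 4.1e-12). Hspa1a is a near-identical copy of Hspa1b, so the split of reads between them is uncertain. It had 6.43, 5.49, 5.69 and 7.65 CPM in IRKO and 11.3, 11.9, 11.0 and 11.1 CPM in IRflox (log2 difference -0.84, SE 0.125, adjusted p 1.38e-05). Hsph1, an HSP110 that exchanges nucleotide on HSP70, had 148, 152, 149 and 154 CPM in IRKO and 182, 192, 205 and 192 CPM in IRflox, with no overlap (-0.36, SE 0.043, adjusted p 4.22e-07). The constitutive HSP70 gene Hspa8, among the most abundant transcripts here, had 1990 ± 52.5 CPM in IRKO and 2380 ± 81.9 CPM in IRflox (-0.26, adjusted p 2.54e-05). Its co-chaperones Dnajb1 and Dnaja1 fell by 0.32 and 0.23 (adjusted p 0.000213 and 0.000144), and the HSP90 gene Hsp90aa1 by 0.22 (adjusted p 0.000153). Calls of some smaller differences were lost without at least 1 library: Hsp90ab1, Hspa9, Hspb8 and Hspd1 reached an adjusted p of 0.0925, 0.0925, 0.0695 and 0.1 without IRKO replicate 3, IRKO replicate 3, IRflox replicate 3 and IRflox replicate 4, and the small heat shock protein Hspb1 (3.97 ± 1.02 CPM in IRKO, 6.31 ± 0.825 CPM in IRflox) one of 0.0879 without IRKO replicate 1. All 15 had negative estimates under vehicle and insulin as well, and 13 were called lower under vehicle and 15 under insulin.

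**Figure D3:**
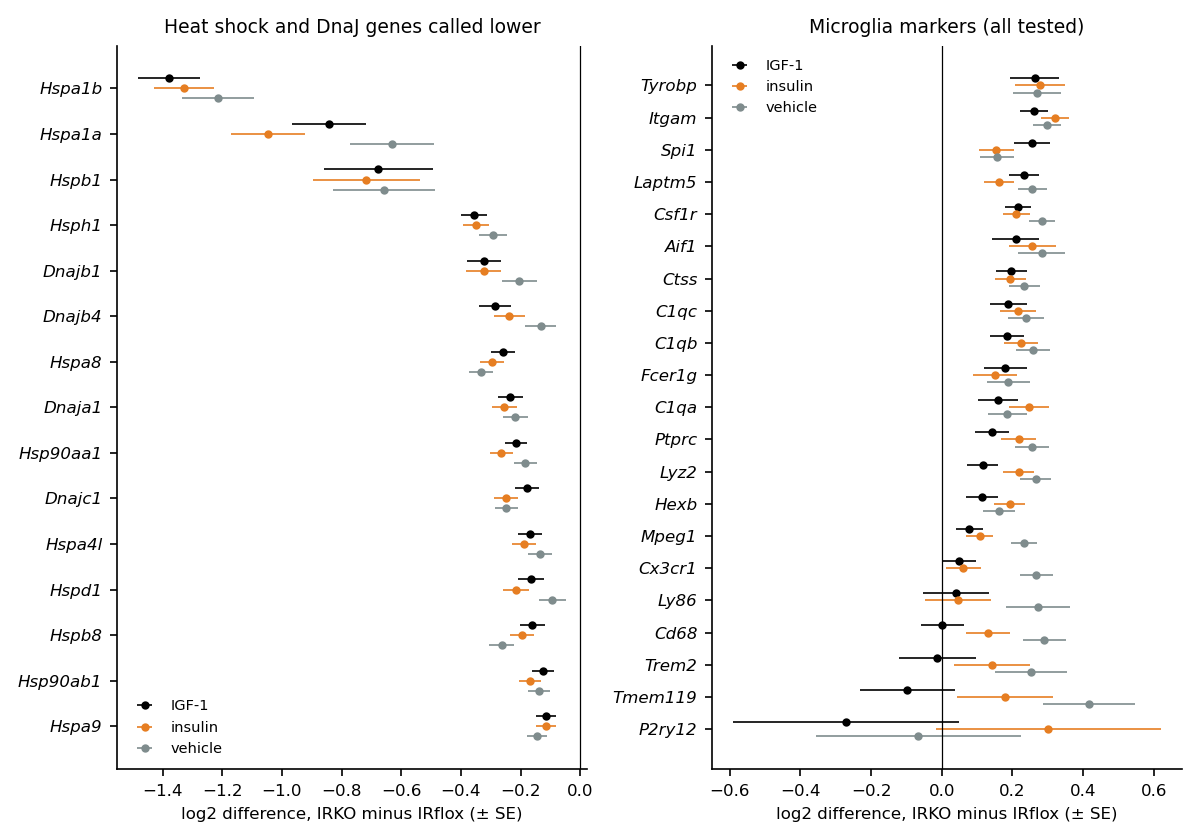
Log2 difference of IRKO minus IRflox with its SE (x axes) for the 15 heat shock and DnaJ genes called lower under IGF-1 (left) and for all 21 microglia markers (right), under IGF-1 (black), insulin (orange) and vehicle (grey). The chaperone genes lie below 0 in all 3 treatments, Hspa1b farthest at -1.38 under IGF-1, and 18 of 21 microglia markers lie above 0 under IGF-1.

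Part of the microglia markers and of the cytokine genes were higher in IRKO. Of 21 microglia markers, 9 rose and none fell (42.9%, against 3.62% of all genes higher), and the list's median was 0.16 on the log2 scale. Csf1r, the receptor for the survival factors of microglia, had 265, 277, 267 and 267 CPM in IRKO and 229, 233, 225 and 237 CPM in IRflox, with no overlap (log2 difference 0.22, SE 0.037, adjusted p 0.000119). Laptm5 rose by 0.23, Spi1, the transcription factor PU.1, by 0.26 and the lysosomal protease Ctss by 0.20 (adjusted p 0.000317, 0.000619 and 0.00308). Itgam, the integrin CD11b, rose by 0.26, but 68.7% of its exon bases are shared with another annotated gene. C1qb, C1qc, Aif1 and Tyrobp were called too, and lost the call in 2, 3, 7 and 2 of the 8 fits without 1 library, with adjusted p up to 0.104 (without IRKO replicate 2), 0.0921 (without IRKO replicate 1), 0.173 (without IRflox replicate 3) and 0.0735 (without IRKO replicate 3). The homeostatic marker Tmem119 (5.48 ± 0.812 CPM in IRKO, 5.88 ± 0.51 CPM in IRflox) was not called, nor was Cx3cr1, the fractalkine receptor (50.2 ± 2.6 CPM in IRKO, 48.5 ± 1.24 CPM in IRflox, adjusted p 0.651). The summed microglia markers did not overlap between the groups, at 5210 to 5350 CPM in IRKO and 4660 to 4970 CPM in IRflox, while the sums of the cytokine, chemokine and NF-kB genes below overlapped, at 20700 to 21200 CPM in IRKO and 19600 to 21900 CPM in IRflox. The part of the microglial difference in the results on immune genes was not tested. The list had 18 higher members under vehicle and 13 under insulin.

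Of 32 cytokine, chemokine and NF-kB genes, 9 rose and 3 fell (28.1% and 9.38%, against 3.62% and 3.15% of all genes), with a median log2 difference of 0.09. Tnf had 287, 317, 295 and 291 CPM in IRKO, against 240, 266, 262 and 254 CPM in IRflox (log2 difference 0.22, SE 0.042, adjusted p 0.000605). All IRKO libraries lay above all IRflox libraries. The chemokine Ccl4 rose by 0.33 (141 ± 6.47 CPM in IRKO, 112 ± 9.47 CPM in IRflox, adjusted p 0.00144), Il1a by 0.31 (adjusted p 0.00221), Ccl9 by 0.24 (adjusted p 0.00235) and Ptgs2, cyclooxygenase 2, by 0.22 (adjusted p 0.00293). Ccl3, Ccl12, Il1b and Saa3 rose by 0.20, 0.42, 0.26 and 0.24 on the log2 scale, each with its call lost without at least 1 library (adjusted p up to 0.0574 without IRKO replicate 2, 0.0664 without IRflox replicate 3, 0.0701 without IRKO replicate 2 and 0.131 without IRflox replicate 3). The 3 that fell were the chemokine Cxcl5 (121 ± 6.35 CPM in IRKO, 152 ± 3.5 CPM in IRflox, -0.34, adjusted p 0.000605), the alarmin Il33 (13.0 ± 1.25 CPM in IRKO, 16.9 ± 1.58 CPM in IRflox, -0.38, adjusted p 0.00661) and the adhesion molecule Icam1 (-0.12). The Icam1 call was lost in 6 of 8 such fits, with adjusted p up to 0.105 without IRKO replicate 3.

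The called members of the complement, interferon and antigen presentation lists were all higher in IRKO under IGF-1. Outside these lists the interferon-inducible GTPase Iigp1 was called lower, as given with the reactive astrocyte panel. Of 17 complement genes 4 rose and none fell (23.5%, against 3.62% of all genes, median 0.02). These were C1qb and C1qc, described with the microglia markers, Cfp, properdin, with 105, 107, 109 and 103 CPM in IRKO and 86.5, 90.5, 89.5 and 88.7 CPM in IRflox (0.25, SE 0.042, adjusted p 7.96e-05), and the C5a receptor C5ar1 (0.31, adjusted p 0.000224). Of 34 interferon response genes 4 rose (11.8%, median 0.05). Oas2, which makes the activator of RNase L, had 30.3, 37.4, 38.1 and 38.5 CPM in IRKO and 25.5, 26.4, 28.9 and 24 CPM in IRflox (0.46, SE 0.079, adjusted p 0.000141), and the transcription factor Irf1 rose by 0.22 (adjusted p 0.000395). Mx1 and Stat2 were also called, both lost in 5 of 8 fits without 1 library, with adjusted p up to 0.118 (without IRKO replicate 4) and 0.156 (without IRflox replicate 4). The Mx1 call was also lost with DESeq2 (adjusted p 0.0809). Of 20 antigen presentation genes 2 rose (10%, against 3.62% of all genes, median 0.02), while under vehicle none rose and 3 fell (median -0.04) and under insulin 1 rose and 2 fell (median -0.05). Nlrc5, the activator of MHC class I genes, had 144 ± 13.2 CPM in IRKO and 119 ± 5.44 CPM in IRflox (0.28, adjusted p 0.00109), and Cd74, the MHC class II invariant chain, rose by 0.31 (adjusted p 0.008, and 0.059 without IRKO replicate 1). The interferon list summed to 10600 to 11500 CPM in IRKO and 10300 to 11500 CPM in IRflox, overlapping throughout. In the same list none rose and 7 fell in IRKO under vehicle, and 1 rose and 8 fell under insulin. In the tests between treatments given below, edgeR called none of its genes after the expression filter. With no filter it called Mx1 and Stat2 against vehicle (differences of 0.35 and 0.27, adjusted p 0.00632 each) and Ifit1, Ifit2 and Rsad2 against insulin (0.25, 0.35 and 0.32, adjusted p 0.0193, 9.8e-06 and 0.000794), each with the genotype difference more positive under IGF-1. They were among 19 genes of any kind called against vehicle and 16 against insulin, and genes outside the list had lower adjusted p, as given below. DESeq2 called Stat2 against vehicle.

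Some single immune genes outside the lists are given because they rose, having been chosen after their values were seen. The kinase gene Ikbke had 222, 232, 228 and 218 CPM in IRKO and 185, 167, 169 and 147 CPM in IRflox (log2 difference 0.43, SE 0.048, adjusted p 4.91e-08). Chil1, a chitinase-like secreted protein made by reactive astrocytes and macrophages, had 229, 234, 216 and 218 CPM in IRKO and 173, 179, 162 and 164 CPM in IRflox (0.40, SE 0.043, adjusted p 2.56e-08). Both showed groups that did not overlap. The macrophage lectin Siglec1 rose by 0.47, the integrin Itgal by 0.33, the inflammasome gene Nlrp3 by 0.27 and Acod1, which makes itaconate, by 0.24 (adjusted p 1.63e-06, 1.96e-06, 0.000153 and 2.01e-05).

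Genes of cholesterol synthesis and uptake were higher in IRKO by small amounts. Of 25 tested, 7 rose (28%, against 3.62% of all genes) and none fell. Of the 25 estimates, 24 were above 0, and the median was 0.10 on the log2 scale. Hsd17b7, a late-step sterol reductase, had 210, 217, 212 and 210 CPM in IRKO and 158, 198, 168 and 189 CPM in IRflox (log2 difference 0.25, SE 0.049, adjusted p 0.000678). The IRflox libraries varied more than the IRKO libraries, but the groups did not overlap. Lss, lanosterol synthase, had 382 ± 10.3 CPM in IRKO and 337 ± 18.8 CPM in IRflox (0.18, adjusted p 0.0036). Acat2, which makes the acetoacetyl-CoA that feeds the pathway, rose by 0.17 and the sterol carrier Stard4 by 0.16 (adjusted p 0.00408 and 0.00568). Sqle and Pmvk rose by 0.13 and 0.23, with adjusted p up to 0.0665 without IRflox replicate 1 and 0.0552 without IRflox replicate 3. The list summed to 7660 to 7880 CPM in IRKO and 7040 to 7750 CPM in IRflox, with overlap through IRflox replicate 2. The same list had 8 higher genes under vehicle and 4 under insulin.

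Of 19 genes of fatty acid synthesis and desaturation, 3 rose (15.8%, against 3.62% of all genes) and none fell (median 0.06). Gpam, which adds the first acyl chain in glycerolipid synthesis, had 221, 222, 217 and 226 CPM in IRKO and 183, 169, 180 and 169 CPM in IRflox, with no overlap (log2 difference 0.34, SE 0.051, adjusted p 1.78e-05). Pnpla3 is described above, and Acss2, an acetyl-CoA synthetase, rose by 0.12 (adjusted p 0.0448), a call lost in all 8 fits without 1 library, with adjusted p up to 0.136 without IRflox replicate 4.

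Few autophagy genes were called between genotypes under IGF-1, and lists of this size would hold few at the 6.76% called among all genes tested. Of 22 genes of autophagy initiation none rose and 1 fell (4.55%, against 3.15% of all genes lower). Of 16 of the ATG8 family and its conjugation none was called, and of 18 selective autophagy receptors 1 fell (5.56%). The list medians were 0.02, -0.01 and -0.04 on the log2 scale. Ulk1, the kinase that starts autophagy, averaged 36.1 ± 1.37 CPM in IRKO and 35.4 ± 1.91 CPM in IRflox (0.03, SE 0.059, adjusted p 0.857), and Gabarapl1, an ATG8 protein, 104 ± 7.22 CPM in IRKO and 106 ± 9.73 CPM in IRflox (-0.03, SE 0.051, adjusted p 0.818). Sqstm1, the receptor p62, had 630 ± 20 CPM in IRKO and 677 ± 45.7 CPM in IRflox (-0.10, SE 0.045, adjusted p 0.173). The groups overlapped in all 3. The gene of initiation that fell was Atg14, a subunit of the PI3K complex that acts on the phagophore, with 13.0, 13.2, 14.3 and 15.6 CPM in IRKO and 18.0, 17.9, 15.9 and 16.0 CPM in IRflox (-0.27, SE 0.086, adjusted p 0.0422). Its call was lost in 6 of 8 fits without 1 library, with adjusted p up to 0.146 without IRKO replicate 1. Sec62, a receptor for endoplasmic reticulum, fell by 0.14 (adjusted p 0.027, and up to 0.117 without IRKO replicate 4). Neither Vmp1, which acts in phagophore formation (154 ± 6.25 CPM in IRKO, 139 ± 8.37 CPM in IRflox, 0.15, adjusted p 0.0659), nor Wdfy3, a scaffold of aggregate clearance (325 ± 3.66 CPM in IRKO, 296 ± 9.42 CPM in IRflox, 0.14, adjusted p 0.0955), was called, although their groups did not overlap. Both were called higher with no expression filter (adjusted p 0.0356 for Vmp1, 0.0389 for Wdfy3) and with the 8 IGF-1 libraries alone (0.0144 for Vmp1, 0.00625 for Wdfy3), and Vmp1 also without IRflox replicate 1 (adjusted p 0.0363).

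Of 30 lysosome genes 3 rose (10%, against 3.62% of all genes) and none fell (median 0.00). Those that rose were Gusb, Ctsz and the transcription factor Mitf, by 0.15, 0.14 and 0.34 on the log2 scale. Each call was lost without at least 1 library, with adjusted p up to 0.155 (without IRKO replicate 4), 0.147 (without IRflox replicate 3) and 0.144 (without IRKO replicate 2). Of 35 FOXO factors and targets 2 rose and 2 fell (5.71% each, against 3.62% and 3.15% of all genes, median -0.01), while 1 rose and 6 fell under vehicle and 2 rose and 6 fell under insulin, with Insr, itself a FOXO target, among those lower under IGF-1. Foxo3 had 142 ± 4.96 CPM in IRKO and 142 ± 3.55 CPM in IRflox (-0.01, adjusted p 0.965), Foxo1 42.0 ± 3.93 CPM in IRKO and 44.2 ± 2.03 CPM in IRflox (-0.08, adjusted p 0.528), and Fbxo32, a ubiquitin ligase gene of atrophy, 4.07 ± 1.07 CPM in IRKO and 3.52 ± 0.972 CPM in IRflox (0.21, adjusted p 0.563). Trp53inp2, which promotes autophagosome formation, rose to 222 ± 12.3 CPM in IRKO, against 194 ± 9.32 CPM in IRflox (0.19, adjusted p 0.00527). Pdk4, which inhibits pyruvate dehydrogenase, rose by 0.61 (adjusted p 0.0474) and Cited2 fell by 0.16 (adjusted p 0.0177), calls that reached adjusted p 0.282 and 0.0708 without IRKO replicate 4.

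**Figure D4:**
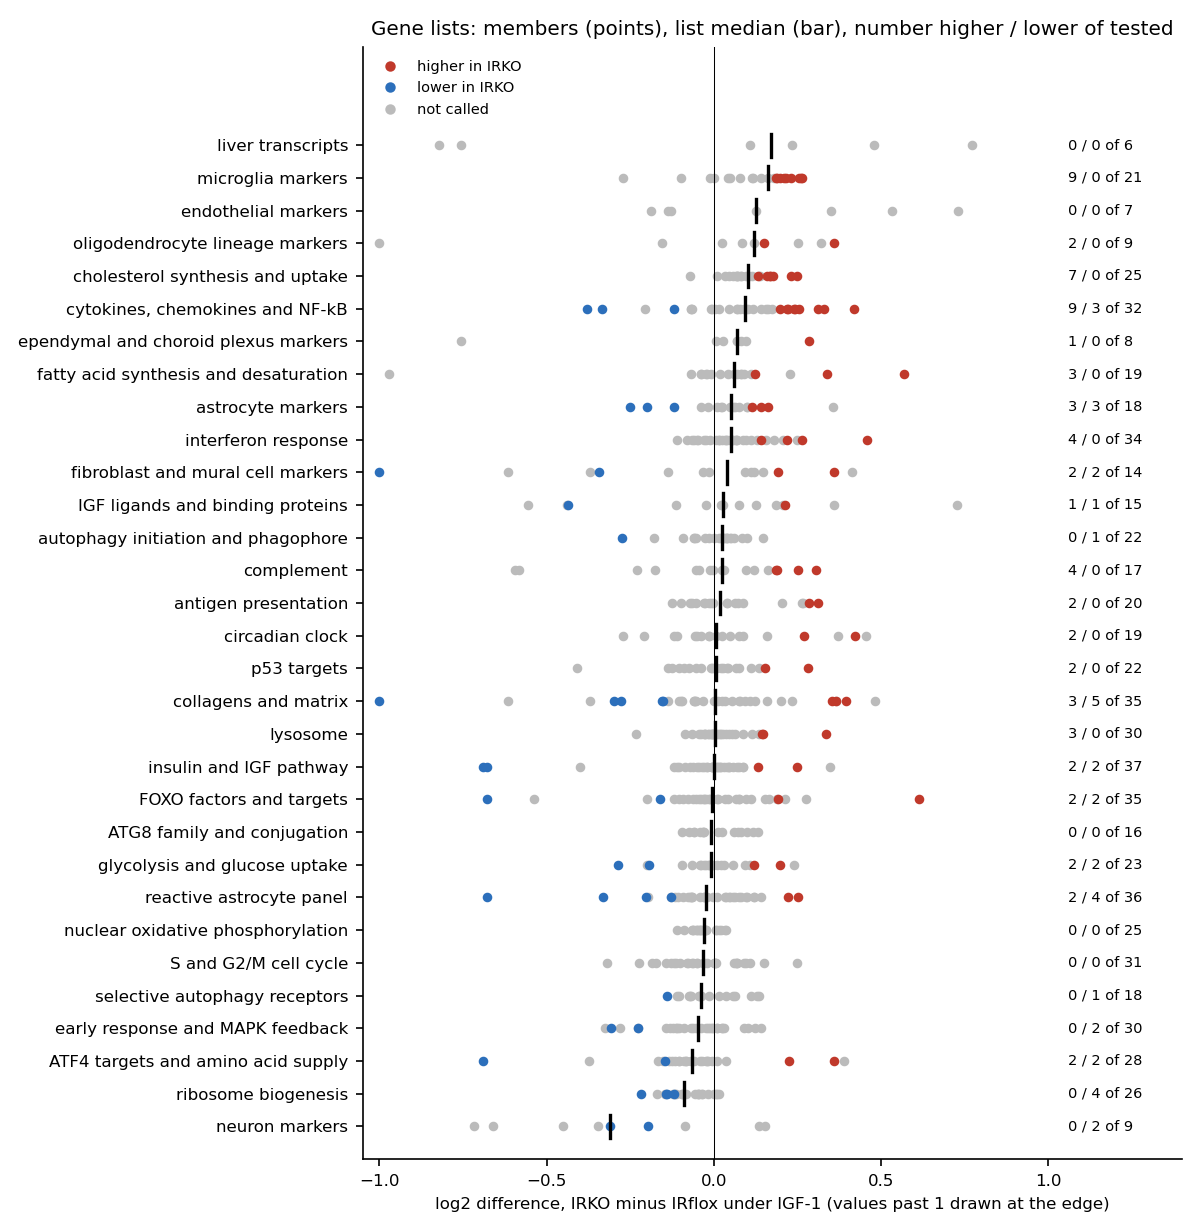
Log2 difference of IRKO minus IRflox under IGF-1 (x axis) for the tested members of 31 gene lists (rows, ordered by median), with called members in red (higher) and blue (lower), the list median as a bar and the number higher / lower of those tested at the right. Microglia markers (9 / 0 of 21), cytokines (9 / 3 of 32) and cholesterol genes (7 / 0 of 25) hold the most red points. The autophagy and oxidative phosphorylation lists hold few or no called genes, where 6.76% of all genes tested were called.

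Of 23 glycolysis and glucose uptake genes 2 rose and 2 fell (8.7% each, against 3.62% and 3.15% of all genes, median -0.01). Pfkp, the platelet-type phosphofructokinase, had 111, 110, 112 and 114 CPM in IRKO and 141, 132, 140 and 132 CPM in IRflox, with no overlap (log2 difference -0.29, SE 0.041, adjusted p 8.12e-06). Slc16a1, the lactate transporter MCT1, fell by 0.19 (426 ± 13.4 CPM in IRKO, 488 ± 19.8 CPM in IRflox, adjusted p 0.000832), Eno2 rose by 0.20 (adjusted p 0.00558), and Pfkfb3 rose by 0.12 (adjusted p 0.0214, and up to 0.122 without IRflox replicate 2). None of 25 nuclear oxidative phosphorylation genes was called (against 6.76% of all genes, median -0.03). Of 26 ribosome biogenesis genes 4 fell and none rose (15.4%, against 3.15% of all genes lower, median -0.09, with 4 of 26 estimates above 0). Their sums did not overlap, at 3120 to 3240 CPM in IRKO and 3250 to 3560 CPM in IRflox. These were Polr1b, a subunit of RNA polymerase I, by 0.22, and Ncl, Nolc1 and Mybbp1a by 0.14, 0.14 and 0.12, and all 4 calls were lost without at least 1 library (adjusted p up to 0.104 without IRflox replicate 4, 0.17 without IRflox replicate 4, 0.106 without IRflox replicate 4 and 0.0907 without IRKO replicate 2).

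Of 28 ATF4 targets and amino acid supply genes 2 rose and 2 fell (7.14% each, against 3.62% and 3.15% of all genes, median -0.07). Slc38a2, a transporter of neutral amino acids, fell by 0.15 (262 ± 4.73 CPM in IRKO, 290 ± 8.46 CPM in IRflox, adjusted p 0.00305), and Vldlr, a lipoprotein and reelin receptor, rose by 0.36 (18.6 ± 0.306 CPM in IRKO, 14.5 ± 1.1 CPM in IRflox, adjusted p 0.00199). Of 30 early response and MAPK feedback genes 2 fell (6.67%, against 3.15% of all genes, median -0.05). Spry4, an inhibitor of receptor tyrosine kinase signalling, fell to 37.3 ± 2.37 CPM in IRKO, against 46.1 ± 2.1 CPM in IRflox (-0.31, SE 0.057, adjusted p 0.000395). Ier3 was the other (-0.23, adjusted p 0.00681, and 0.0534 without IRflox replicate 2). None of 31 cell cycle genes was called (against 6.76% of all genes, median -0.03). Of 22 p53 targets 2 rose (9.09%, against 3.62% of all genes, median 0.01). These were Btg2 by 0.28 (adjusted p 0.00016) and Ei24 by 0.15 (adjusted p up to 0.157 without IRKO replicate 1). Of 19 clock genes 2 rose (10.5%, against 3.62% of all genes, median 0.01). Per3 had 35.9, 39.7, 37.8 and 38.5 CPM in IRKO and 31.8, 26.9, 30.7 and 23.9 CPM in IRflox (0.42, SE 0.079, adjusted p 0.00035). Per2, another repressor of the clock, rose by 0.27 (adjusted p 0.0116, and 0.0703 without IRKO replicate 3).

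Astrocyte markers moved both ways, 3 of 18 higher and 3 lower (16.7% each, against 3.62% and 3.15% of all genes, median 0.05). Aqp4, the water channel of astrocyte endfeet, had 1120, 1130, 1140 and 1110 CPM in IRKO and 994, 1010, 1030 and 982 CPM in IRflox, with no overlap (log2 difference 0.16, SE 0.034, adjusted p 0.00159). Fabp7, a fatty acid binding protein of radial glia and immature astrocytes, fell to 313 ± 14.5 CPM in IRKO, against 373 ± 13.1 CPM in IRflox (-0.25, adjusted p 0.00763), and Id3 fell by 0.20 (adjusted p 0.00307). Gfap was not called (685 ± 18.2 CPM in IRKO, 650 ± 35.3 CPM in IRflox, adjusted p 0.388). The glutamate transporter Slc1a3 and Aldh1l1 rose by 0.12 and 0.14, and the gap junction gene Gja1 fell by 0.12, with adjusted p up to 0.0584 (without IRflox replicate 2), 0.108 (without IRKO replicate 1) and 0.128 (without IRKO replicate 3). Of the 36 genes of a reactive astrocyte panel 2 rose and 4 fell (5.56% and 11.1%, against 3.62% and 3.15%, median -0.02). Cd14 rose by 0.25 (adjusted p 8.32e-05), while Emp1 fell by 0.33 (adjusted p 0.00412) and the interferon-inducible GTPase Iigp1 by 0.20 (adjusted p 0.00423).

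Matrix genes also differed in both directions. Of 35 collagens and matrix genes 3 rose and 5 fell (8.57% and 14.3%, against 3.62% and 3.15% of all genes, median 0.00). Lum, the fibroblast proteoglycan lumican, had 1.03, 1.18, 0.847 and 1.17 CPM in IRKO, against 2.86, 4.76, 3.82 and 2.64 CPM in IRflox (log2 difference -1.73, SE 0.246, adjusted p 7.61e-06). The groups did not overlap, although the IRflox libraries spread widely. Col6a1, a chain of microfibrillar collagen VI, had 63.6, 59.3, 59.5 and 61.9 CPM in IRKO and 47.2, 47.0, 46.0 and 45.6 CPM in IRflox (0.40, SE 0.052, adjusted p 1.63e-06). Col8a1 fell by 0.30 and the proteoglycan gene Vcan by 0.28, while Ncan, a proteoglycan of brain matrix, rose by 0.35 (adjusted p 1.2e-05, 0.000388 and 0.000288). Of the 14 tested fibroblast and mural cell markers 2 rose and 2 fell (14.3% each). Lum and Foxc1 were lower (Foxc1 -0.34, adjusted p 0.00929, and 0.0705 without IRKO replicate 4). Cspg4, given below with the oligodendrocyte lineage, and Pdgfrb were higher. The Pdgfrb call was lost in 7 of the 8 fits without 1 library, with adjusted p up to 0.147 without IRflox replicate 4. The marker sums of that type overlapped between the groups.

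The summed markers of neurons were lower and those of the oligodendrocyte lineage higher in IRKO, without overlap. Of 9 tested neuron markers 2 fell (22.2%, against 3.15% of all genes lower, median -0.31): Map2 had 44.3, 46.0, 49.6 and 43.1 CPM in IRKO and 56.3, 55.5, 59.1 and 56.0 CPM in IRflox (-0.31, SE 0.060, adjusted p 0.000543), and Stmn2 fell by 0.20 (adjusted p 0.0073, and 0.056 without IRKO replicate 1). The vesicular glutamate transporter Slc17a6 was at 0 counts in all 8 libraries, and Snap25 reached at most 2 counts in an IRKO and 5 in an IRflox library. Rbfox3, Dcx, Neurod6 and Nefl were also too low to be tested, Rbfox3 with at most 5 counts in an IRKO and 6 in an IRflox library. In IRKO cultures Stmn2, at 75.2 to 83.6 CPM, and Map2 made up most of the neuron sum. Of 9 tested oligodendrocyte lineage markers 2 rose (22.2%, against 3.62% of all genes higher), Cspg4 by 0.36 (adjusted p 0.00156) and Olig1 by 0.15. Cspg4 is also in the list of fibroblast and mural cell markers. The Olig1 call was lost in 6 of the 8 fits without 1 library, with adjusted p up to 0.21 without IRflox replicate 4. The myelin gene Opalin was at 0 counts, and Sox10, Mog, Mobp, Ugt8a and Bcas1 were also too low to be tested. Sox10 reached at most 7 counts in an IRKO and 3 in an IRflox library. Which cells made the neuron and oligodendrocyte lineage transcripts was not tested. None of 7 endothelial markers was called (against 6.76% of all genes), with Cldn5 at 0 counts. Of 8 ependymal and choroid plexus markers 1 rose (12.5%), Rarres2, which shares 33.6% of its exon bases with another gene. None of 6 tested liver transcripts was called.

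Further single genes are given because they fell, having been chosen after their values were seen. The summed neuron markers were also lower in IRKO (149 to 159 CPM, against 172 to 183 CPM in IRflox), and their part in these results was not tested. Slit2, the secreted guidance cue, had 249, 237, 235 and 234 CPM in IRKO and 299, 290, 295 and 289 CPM in IRflox, with no overlap (log2 difference -0.30, SE 0.043, adjusted p 9.37e-06). Its receptor gene Robo2 fell by 0.36, and the netrin receptor genes Unc5b and Unc5c by 0.41 and 0.55 (adjusted p 5.67e-05, 1.78e-05 and 0.000107). The imprinted gene Peg10 fell to 127 ± 7.97 CPM in IRKO, against 186 ± 8.7 CPM in IRflox (-0.56, adjusted p 2.47e-10), the actin-binding Lima1 by 0.41 (adjusted p 1.6e-09), the basement membrane protein Nid2 by 0.39 (adjusted p 3.35e-09) and the caveolae protein Cav1 by 0.49 (adjusted p 6.27e-09). The HGF receptor gene Met fell by 0.43 and the WNT receptor gene Fzd7 by 0.36 (adjusted p 2.42e-05 and 3.53e-05).

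The genotype comparison was also made in the vehicle and in the insulin libraries, which share no library with the IGF-1 comparison. Under vehicle 7.86% of genes were called, 586 higher in IRKO (3.76%) and 640 lower (4.1%), and under insulin 10.5%, 771 higher (4.94%) and 863 lower (5.53%). Of the 564 genes higher under IGF-1, 270 were called higher under vehicle (47.9% of the IGF-1 list, 46.1% of the vehicle list) and 336 under insulin (59.6% and 43.6%). Of the 491 lower genes, 278 were called lower under vehicle (56.6% and 43.4%) and 336 under insulin (68.4% and 38.9%). In all 3 treatments, 216 genes were called higher and 243 lower, and 174 and 120 were called under IGF-1 and in neither other treatment. Estimates had the same sign for 95.5 to 97.4% of the genes. The median log2 difference of the higher genes was 0.24 under IGF-1, 0.19 under vehicle and 0.20 under insulin, and that of the lower genes -0.25, -0.20 and -0.23, the genes having been selected on the first of these values.

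**Figure D5:**
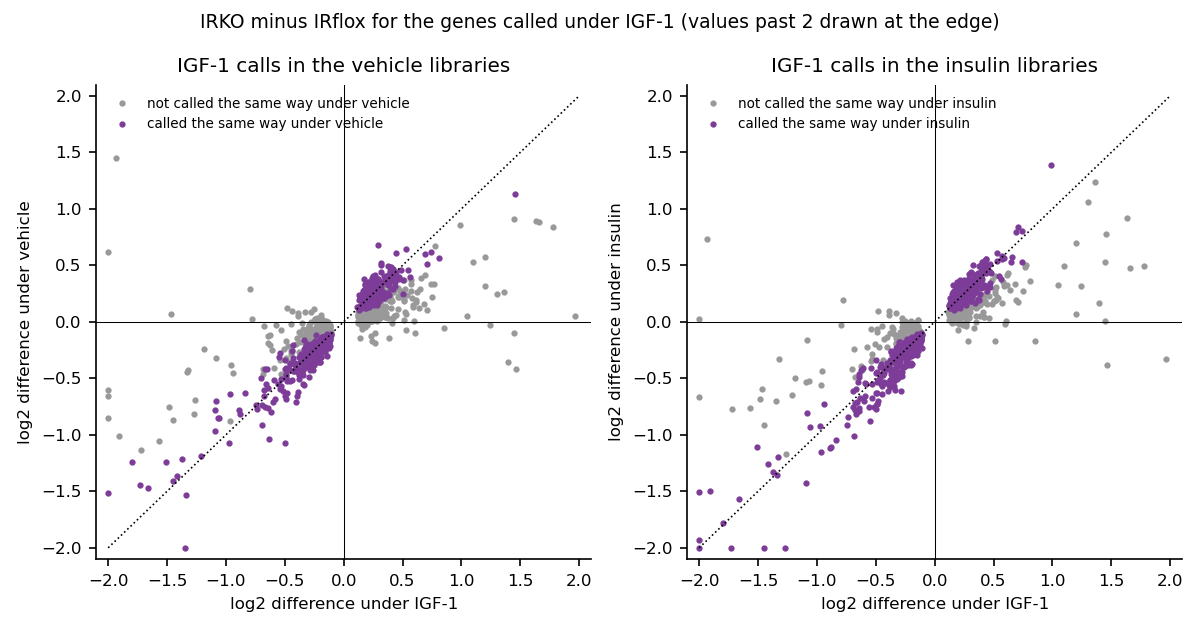
Log2 difference of IRKO minus IRflox under IGF-1 (x axes) against that under vehicle (left) and insulin (right) for the 1055 genes called under IGF-1, with genes called the same way in the other treatment in purple and the line of equality dotted. Most points lie in the same quadrant on both axes, 270 higher and 278 lower genes were called again under vehicle, and 336 and 336 under insulin.

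A test of the genotype difference under IGF-1 minus that under vehicle called 0 of 15599 genes (0%), with 822 genes at an unadjusted p under 0.05 (5.27%). The same test against insulin also called 0 (0%), with 690 (4.42%). With no expression filter edgeR called 19 against vehicle and 16 against insulin, all of them also tested in the main fit. The lowest adjusted p were those of Gm23935, Mir6236 and Lars2 against vehicle (5.58e-48, 8.93e-45 and 3.04e-30). Against insulin they were those of Gm23935 and Lars2 (3.69e-10 and 2.43e-06). DESeq2 called 2 genes in each. Against vehicle these were Wnt5a, a secreted WNT ligand, and Stat2, the interferon signal transducer. Wnt5a had 85.1, 82.8, 86.3 and 85.1 CPM in IRKO and 69.7, 68.1, 63.0 and 66.1 CPM in IRflox under IGF-1 (log2 difference 0.35, adjusted p 2.5e-07), against a log2 difference of 0.07 under vehicle (adjusted p 0.364), and the difference of 0.28 had an edgeR adjusted p of 0.223 (DESeq2 adjusted p 0.0242). Stat2 was the single gene called in opposite directions, 0.14 under IGF-1 (adjusted p 0.0301, and up to 0.156 without IRflox replicate 4) and -0.14 under vehicle (adjusted p 0.0326), with an edgeR adjusted p of 0.223 for the difference (DESeq2 adjusted p 0.031). Against insulin DESeq2 called Fgl2 and Slfn5 (differences of 0.32 and 0.45, adjusted p 0.0233 each). The genes that DESeq2 called were named after their values were seen.

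Genes that answer insulin in control cells were then followed in the IGF-1 comparison. In IRflox cells insulin raised 616 genes (3.95%) and lowered 699 (4.48%) by over 1.5-fold against vehicle, in libraries that the IGF-1 comparison does not use. Of the 616 raised genes, 33 (5.36%) were higher and 37 (6.01%) lower in IRKO under IGF-1, with a median log2 difference of -0.01. Of the 699 lowered genes, 26 (3.72%) were higher and 19 (2.72%) lower, with a median of 0.03. The remaining 14284 genes had 505 higher (3.54%) and 435 lower (3.05%) and a median of 0.00. The median response to insulin itself in IRflox cells was 0.81 on the log2 scale for the raised and -0.81 for the lowered genes.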

How the data were processed

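Poly-A RNA was measured in 24 libraries, 8 of which make the comparison, grouped by title. The authors deposited raw, unnormalized gene counts. STAR 2.7.7a and R 4.0.4, with DESeq2, edgeR and the mm10 build, appear in the submitters' processing notes with no role stated. How reads were counted and with which annotation is not given in the sources used here. In each file 3 closing lines hold read totals and were dropped. Gene counts summed to 4.55 to 4.93% more than the reads overlapping genes, and whether reads were counted more than once was not tested.

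Counts were fitted with edgeR 4.0.16 in R 4.3.3 (TMM scaling, expression filter with minimum count 10 and minimum total 15, 1 mean per group over all 24 libraries, quasi-likelihood test, Benjamini-Hochberg adjustment over 15599 genes). DESeq2 1.42.0 was an alternative. CPM used TMM sizes, log2 CPM a prior count of 2, and errors of differences are standard errors of the fit. The biological coefficient of variation was 4.92%. The fits were tested on simulated counts. No 2 libraries of a group agreed within sampling noise.

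Coordinates and shared exons came from GENCODE M21 (mm10), promoters from RefSeq. Named genes were the 12 largest rises and 12 largest falls (adjusted p under 0.05, mean log2 CPM of at least 2, no overlap), up to 3 members of each of 31 lists by lowest p, and a fixed set of receptor, FOXO and autophagy genes. A part of the rule for differences between treatments named no gene. Further called members of the lists and other genes were named after their values were seen. The values of 1 list member are not reported here. The comparison, the lists and the rules were chosen with earlier results of these data known, so they are not independent of the data.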

Additional observations from a re-analysis of the deposited data

Results flagged for a closer look

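Within each group of 4, the lowest and the highest library were set against the others for each named gene, and 16 of 406 groups had 1 library apart by Dixon's criterion (the gap to the nearest library as a share of the range). Chance alone flags about 1 in 20 groups. Values are CPM.

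In IRKO cultures, replicate 1 stood apart with 183 for Ei24 (164 to 167 in the others), 30.3 for Oas2 (37.4 to 38.5), 75.2 for Stmn2 (83 to 83.6) and 288 for Aldh1l1 (268 to 271). IRKO replicate 2 stood apart with 4.86 for Arhgap8 (5.74 to 5.86), 250 for Itgam (227 to 228), 277 for Csf1r (265 to 267), 77 for Pmvk (83.9 to 85.2) and 427 for Il1a (321 to 339). IRKO replicate 3 stood apart with 284 for Ptpn1 (276 to 277) and 134 for Foxo3 (144 to 145).

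In IRflox cultures, replicate 1 had 1900 for Hsp90ab1 (1970 in each of the others), replicate 2 had 21.8 for Igf1 (24.7 to 24.9) and 51.1 for Adora1 (57.8 to 58.4), and replicate 3 had 186 for Itgam (196 to 198) and 15.8 for Cspg4 (16.7 to 16.8).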

How the results depend on the processing

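The count of called genes was 1055 and lay between 1060 and 1154 with DESeq2 size factors, library size alone, no filter, a mean CPM of at least 1 and DESeq2, which shared 1040 calls with edgeR. With the 8 IGF-1 libraries alone it was 1351. Leaving out 1 library of a compared group gave 745 to 908 calls (397 to 512 higher, 345 to 454 lower), 75 to 89 called list members, 12 to 15 lower heat shock and DnaJ genes (alternatives added after seeing the data), 439 to 532 calls found again under vehicle and 504 to 678 under insulin, and medians of -0.0153 to -0.0068 and 0.0078 to 0.0364 for the genes raised and lowered by insulin. The tests of IGF-1 minus vehicle and minus insulin called 0 genes, but 19 and 16 with no filter and 2 and 2 with DESeq2, and 0 to 0 and 0 to 1 without 1 library; the cause was not tested. Of 161 called genes followed singly, 111 kept the call in all 8 fits without 1 library, and 0 changed sign. In the 6 other settings on 24 libraries 149 kept it. No filter lost the calls of Ptpn1, Gusb, Mitf, Acss2, Pfkfb3, Slc1a3, Gja1 and Aif1, and DESeq2 those of Mx1, Olig1 and Saa3. DESeq2 size factors lost Acss2, Olig1 and Aif1, and the replicate block lost Pdk4 and Aif1. Among uncalled genes the sign changed for Ttr (range -1.15 to 0.47, the highest without IRflox replicate 1), Foxo3 (-0.0294 to 0.02, above 0 without IRKO replicate 3 and, at 0.0094, IRflox replicate 4) and Gabarapl1 (-0.0741 to 0.0266, above 0 without IRflox replicate 4 and, at 0.009, IRKO replicate 2).

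Same-numbered IRKO and IRflox libraries showed no broad shared deviation (correlations -0.05, -0.027, -0.05 and 0.016). These values cannot tell whether such libraries share a culture or litter. The replicate block gave 1067 calls (578 higher, 489 lower). Depth limits low genes: differences of genes below about 1 CPM rest on few counts.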

Other observations

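Adora1, Mybph and Chil1, which lie next to each other on chromosome 1, were all higher in IRKO. Adora1, an adenosine receptor, averaged 74.7 ± 0.98 CPM in IRKO and 56.3 ± 3.48 CPM in IRflox (SD, n = 4 each; log2 difference 0.41, edgeR adjusted p 1.74e-05), and Mybph, a myosin-binding protein, 24.7 ± 1.03 CPM in IRKO and 17.8 ± 1.25 CPM in IRflox (0.47, adjusted p 8.35e-05). Adora1 and Mybph overlap on opposite strands and share 20.1% and 49.9% of their exon bases, so reads in the shared part cannot be told apart. The 3 genes were chosen after their values were seen.

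Vegfa, the vascular growth factor, had 98, 101, 91.0 and 100 CPM in IRKO and 83.3, 78.5, 74.3 and 75.9 CPM in IRflox under IGF-1 (log2 difference 0.32, adjusted p 3.9e-05), 0.33 under insulin (adjusted p 2.01e-05) and 0.05 under vehicle (adjusted p 0.681). The test of IGF-1 minus vehicle called 0 of 15599 genes, so Vegfa did not pass it. Vegfa was also chosen after its values were seen.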
